A study of Mus musculus with 39 samples.

Results

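Intestinal cells sorted as granulocytic and monocytic cells together were compared with all cells of the intestine, in APCmin/+ mutant mice. These mice carry 1 mutant copy of Apc, the brake on Wnt signalling, and develop intestinal tumours. The series holds 39 libraries in 13 groups, and the comparison uses 6 of them. There are 3 libraries labelled as combined myeloid-derived suppressor cells, written (G+M) by the submitters and called the combined sort here, and 3 labelled as single cells of the intestine, called all cells. Both groups share the Apc mutation and the tissue, and no wild-type intestine enters. The sources used here do not give the strain background, the ages, the surface markers of the sort, the stretch of intestine, or whether tumour or normal tissue was taken. Libraries were paired by the number in their titles, and genes with at least 1 TPM (a length-corrected transcript level scaled to the same total in every library) in at least 3 of the 6 libraries were tested, 14793 of the 53465 in the table. Of these, 561 reached that level in exactly 3 libraries, and 787 genes reached it in exactly 2 and were left out.

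Myeloid-derived suppressor cells are immature neutrophil-like (G) and monocyte-like (M) cells that expand in tumour-bearing mice and restrain T cells through arginine depletion, reactive oxygen and inhibitory cytokines. In mice they are commonly recognised by the surface antigens CD11b (Itgam), Ly6G (Ly6g) and Ly6C (Ly6c1, Ly6c2). In the intestinal wall such cells lie beside the epithelium, plasma cells, intraepithelial T cells, lymphoid follicles, resident macrophages, mucosal mast cells and vessels. Comparing a sort with all cells of its tissue shows which of these transcripts the sort gained and which it lost.

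Epithelial transcripts were at similar levels in the combined sort and in all cells. Epcam, the epithelial adhesion molecule, was 977, 771 and 848 TPM in combined libraries 1 to 3 and 987, 789 and 808 TPM in all-cell libraries 1 to 3. The paired difference on the log2(TPM + 1) scale was 0.01 ± 0.04 (standard error), with a 95% interval from -0.09 to 0.11. The sum over 13 pan-epithelial genes ranged from 9637 to 13099 TPM in the combined sort and from 9453 to 13212 TPM in all cells. That over 18 mature neutrophil genes ranged from 76.0 to 339 TPM in the combined sort and from 167 to 267 TPM in all cells. Epcam lies at chr17:87635979-87651129 on the plus strand (build mm10, GENCODE annotation). The markers therefore go against the label of a purified myeloid sort, and the libraries are described below by their labelled names only.

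**Figure D1:**
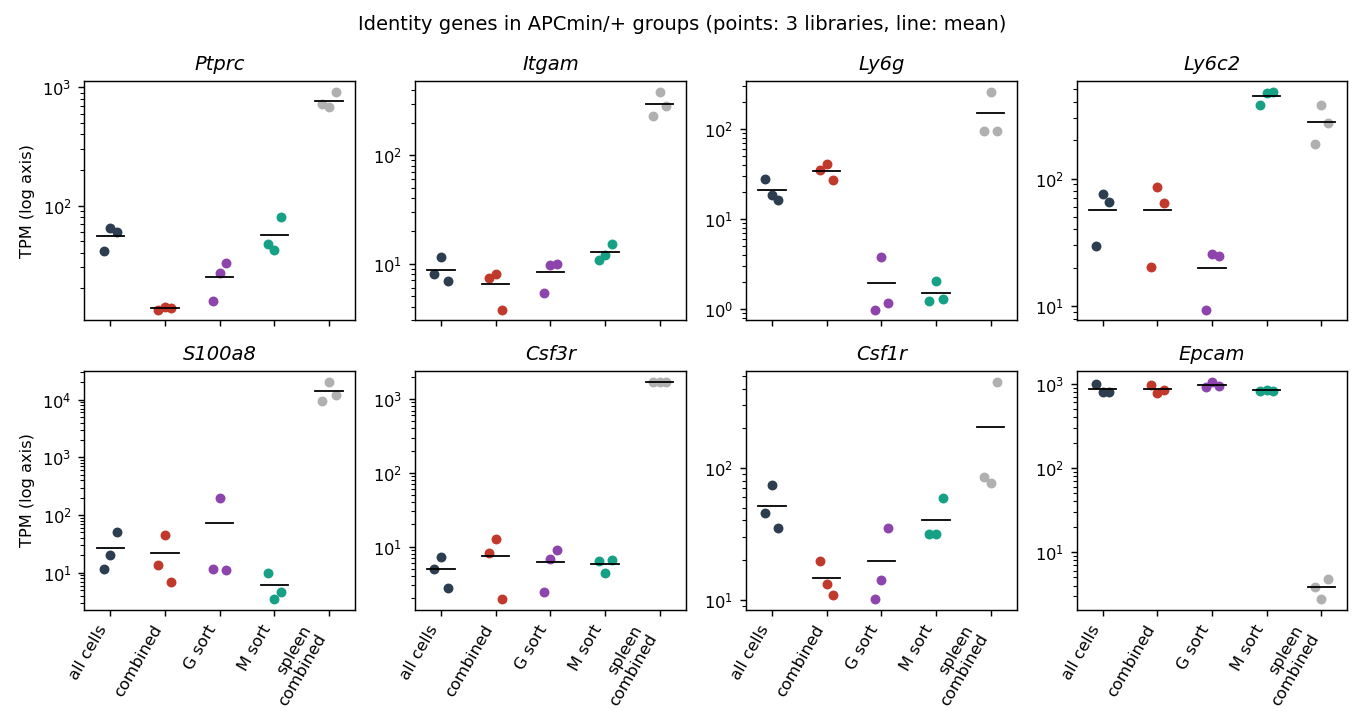
TPM on a log axis of 8 identity genes in all cells and in the combined, G and M sorts of APCmin/+ intestine, with the combined sort of APCmin/+ spleen for reference; points are the 3 libraries of a group and lines their mean. Ptprc is lowest in the intestinal combined sort, Epcam lies between 771 and 1062 TPM in the 4 intestinal groups, and Ly6g is far lower in the intestinal G and M sorts than in the other groups.

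Ptprc, which encodes the pan-leukocyte antigen CD45, was 13.2, 14.0 and 13.6 TPM in the combined sort and 41.6, 64.7 and 60.1 TPM in all cells. The sort was lower in each pair and the groups did not overlap (log2 fold change -1.92 ± 0.12, limma adjusted p = 0.0044). The G sort labelled with the same tissue had 15.5 to 32.5 TPM and the M sort 41.9 to 79.8 TPM. In APCmin/+ spleen the combined sort had 676 to 914 TPM. In bulk RNA, fewer cells of a type and less RNA per cell cannot be told apart, here and in every result below.

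The equally numbered libraries moved together. Deviations from the group means correlated across genes at 0.703, 0.663 and 0.645 for libraries of the same number and at -0.401 to -0.279 for different numbers. Sex-linked transcripts matched within each number: Ddx3y, from the Y chromosome, was 23.3 and 21.7 TPM in combined libraries 1 and 2, 24.3 and 29.2 TPM in all-cell libraries 1 and 2, and at most 0.07 TPM in both libraries of pair 3. Xist, the transcript of the inactive X chromosome, was 224.5 and 255 TPM in pair 3 and at most 0.87 TPM in the other libraries. No label ties a library to an animal. In the paired fit, p values measure how far the differences within pairs vary from pair to pair, and without the pairing term the spread between libraries of a group. Either spread may be technical. Mitochondrially encoded genes held 14.8% to 16.3% of TPM in the combined sort and 9.85% to 12.8% in all cells. Digestive enzyme genes of the acinar pancreas were high in pair 3 alone, where the 10 genes added up to 694 TPM in the combined library and 2153 TPM in the all-cell library, against at most 80.6 TPM in pairs 1 and 2.

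By limma with the pair as a block, 749 genes (5.06% of those tested) passed an adjusted p under 0.05 with at least a 2-fold change. The combined sort was lower for 744 of them (5.03%) and higher for 5 (0.0338%). The 744 genes were lower in the combined library of all 3 pairs, and 571 of them had no overlap between the groups, beside 18.5% of all genes tested with that pattern and 0.791% with the combined libraries wholly above. Both patterns among the 744 follow largely from the call itself and add no support to it. A gene under 1 TPM in every library of 1 group was tested only because all 3 of the other reached 1 TPM. The filter thus fixed its direction, as for Alas2, Cpa3, Tpsb2, Il10, Stfa3, Gata3, Klrg1, Cd160, Cd8b1 and Dpt, all called lower. With no fold minimum 1561 genes (10.6%) were lower and 34 (0.23%) higher at an adjusted p under 0.05, and 28.6% of genes had an unadjusted p under 0.05. Among the 744 were 129 of the 186 immunoglobulin gene segments tested. Without the pairing term 78 genes were called, all among the 749, 0 higher and 78 lower. Without pair 3 the calls came to 269, and without pair 2 to 469. The median log2 fold change over all genes tested was -0.10, which rescaling the libraries by their median ratio brought to 0.00.

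**Figure D2:**
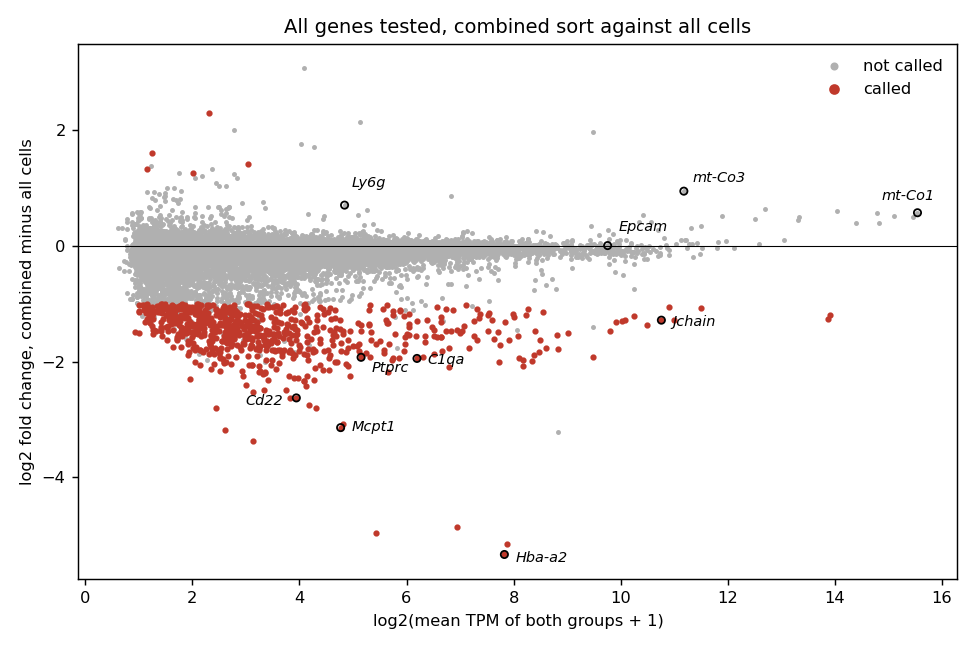
Log2 fold change of the combined sort against all cells (vertical) over the log2 mean TPM of both groups (horizontal) for the 14793 genes tested, with called genes in red. The 744 called genes below the line outnumber the 5 above it, and Epcam lies at 0.01 while Hba-a2 lies at -5.33.

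The 5 genes called higher are predicted or little-described genes, and they are named here after their values were seen. They were Gm1943 (2.29 ± 0.24, adjusted p = 0.00939), Scgb2b15 (1.61), Gm23201 (1.42), Gm6829 (1.33) and Gm12854 (1.26). Scgb2b15 shares 100% of its read-length windows of 75 bases with other genes such as Scgb2b17, so its reads could be split. Gm23201 reached 9.95, 10.6 and 11.5 TPM in the combined sort against 1.33, 5.66 and 4.37 TPM in all cells, and the other 4 had a mean under 10 TPM in both groups. No member of any gene list described here was called higher. None of the 5 was called without pair 3 or without the pairing term (adjusted p for Gm1943 = 0.06 and 0.145).

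The largest falls were in globin genes, which red cells and their precursors transcribe. Hba-a2, an alpha globin gene, was 4.75, 12.1 and 11.0 TPM in the combined sort and 199, 719 and 411 TPM in all cells. Hba-a2, at chr11:32296489-32297298 on the plus strand, was lower in each pair by a similar factor (-5.12, -5.78 and -5.10), giving a log2 fold change of -5.33 ± 0.14 (adjusted p = 9.9e-04). Hbb-bs, a beta globin gene, was 4.33, 18.3 and 12.7 TPM against 200.5, 768 and 405 TPM, a log2 fold change of -5.15 ± 0.09. For both genes pair 1 was lowest and pair 2 highest in either group. Hbb-bt (-4.97) and Hba-a1 (-4.86) fell as far, and Alas2, the first enzyme of haem synthesis in red cells, fell by 2.30 on the log2 scale. Of 6 erythroid genes tested 5 were called lower, beside 5.03% of all genes tested, and Car2 was not (-0.04 ± 0.06). The list summed to 202, 161 and 296 TPM in the combined libraries, of which Car2 held 189, 116 and 265 TPM. The calls came to 4 without the pairing term, without pair 2 or without pair 3, each time without Alas2. Hba-a1 and Hba-a2 share 62.2% and 81.0% of their read-length windows of 75 bases with each other, and Hbb-bs and Hbb-bt share 64.3% and 56.6%, so the split between copies is uncertain.

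The stretches before the RefSeq starts of these genes are shown because the globin genes and the mast cell protease Mcpt1, described next, fell together and belong to lineages that use GATA transcription factors. The word GATAAG is in capitals. It was chosen after the sequences were seen, was searched on both strands of the 250 bases before the start, and occurred in 6.55% of the 32851 mouse windows of that length (RefSeq, build GRCm38.p6). Bases inside an annotated transcript of the gene were left out. The stretches run from chr11:32296242-32296488 on the plus strand for Hba-a2, chr7:103828097-103828178 and chr7:103813997-103814173 on the minus strand for Hbb-bs and Hbb-bt, and chr14:56017714-56017963 on the plus strand for Mcpt1.
Hba-a2: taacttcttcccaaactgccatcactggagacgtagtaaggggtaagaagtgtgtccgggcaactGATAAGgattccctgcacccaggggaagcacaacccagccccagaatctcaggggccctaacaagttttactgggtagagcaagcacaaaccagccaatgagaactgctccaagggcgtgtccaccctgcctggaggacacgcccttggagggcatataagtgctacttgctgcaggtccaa
Hbb-bs: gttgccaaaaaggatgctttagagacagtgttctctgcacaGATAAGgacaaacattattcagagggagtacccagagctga
Hbb-bt: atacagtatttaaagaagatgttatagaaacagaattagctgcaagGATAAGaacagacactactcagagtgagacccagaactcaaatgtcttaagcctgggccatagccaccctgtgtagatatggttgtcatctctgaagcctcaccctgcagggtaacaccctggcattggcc
Mcpt1: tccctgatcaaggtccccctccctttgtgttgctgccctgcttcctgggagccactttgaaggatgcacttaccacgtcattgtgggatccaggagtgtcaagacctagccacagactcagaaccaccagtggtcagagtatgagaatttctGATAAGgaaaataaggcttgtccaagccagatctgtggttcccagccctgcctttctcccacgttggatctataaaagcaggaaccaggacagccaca
Each stretch held the word once, on the strand of the gene. It began 185 bases before the start of Hba-a2, 209 before that of Hbb-bs, 204 before that of Hbb-bt and 98 before that of Mcpt1. The windows of Hba-a1 and Hba-a2 shared a run of 247 bases, which is why 1 of the pair is printed, whereas those of Hbb-bs and Hbb-bt shared no run over 14 bases. The windows of Ccl21a and Gm13304, described below, which fell by 3.08 and 3.37 on the log2 scale, held no such word. A match or its lack describes the letters only.

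Protease genes of mucosal mast cells, which lie in the gut epithelium and release chymases, were also lower. Mcpt1, a mucosal mast cell chymase, was 6.39, 4.50 and 2.64 TPM in the combined sort and 34.7, 71.0 and 38.4 TPM in all cells, a log2 fold change of -3.14 ± 0.28 (adjusted p = 0.00747). Its close relative Mcpt2 was 3.78, 3.62 and 1.38 TPM against 18.1, 35.9 and 16.7 TPM (-2.63 ± 0.21). The groups did not overlap for either gene, and the fall was smallest in pair 1 for both. Cpa3, the mast cell carboxypeptidase (-1.52), and Tpsb2, a tryptase (-1.06), were called at levels of at most 3.99 TPM. Kit, the stem cell factor receptor that mast cells share with pacemaker cells of the gut wall, was not called at -0.16 ± 0.06. Hdc, the histamine-forming enzyme, was 3.62, 15.7 and 1.10 TPM against 1.98, 7.74 and 0.92 TPM, higher in each pair and not called (0.57 ± 0.18, adjusted p = 0.117). Hdc is also a member of the mature neutrophil list described below. Of 7 tested mast cell genes 4 were called lower, beside 5.03% of all genes tested, and 1 of them without the pairing term. The filter fixed the direction of Cpa3 and Tpsb2. Cpa3 and Tpsb2 lost their call without pair 2 or pair 3, Cpa3 also without pair 1, and Mcpt1 without pair 3 (adjusted p = 0.053). Mcpt1 (chr14:56017971-56020384, plus strand) had 7.86 to 35.5 TPM in intestinal G libraries and 28.4 to 52.3 TPM in M libraries.

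**Figure D3:**
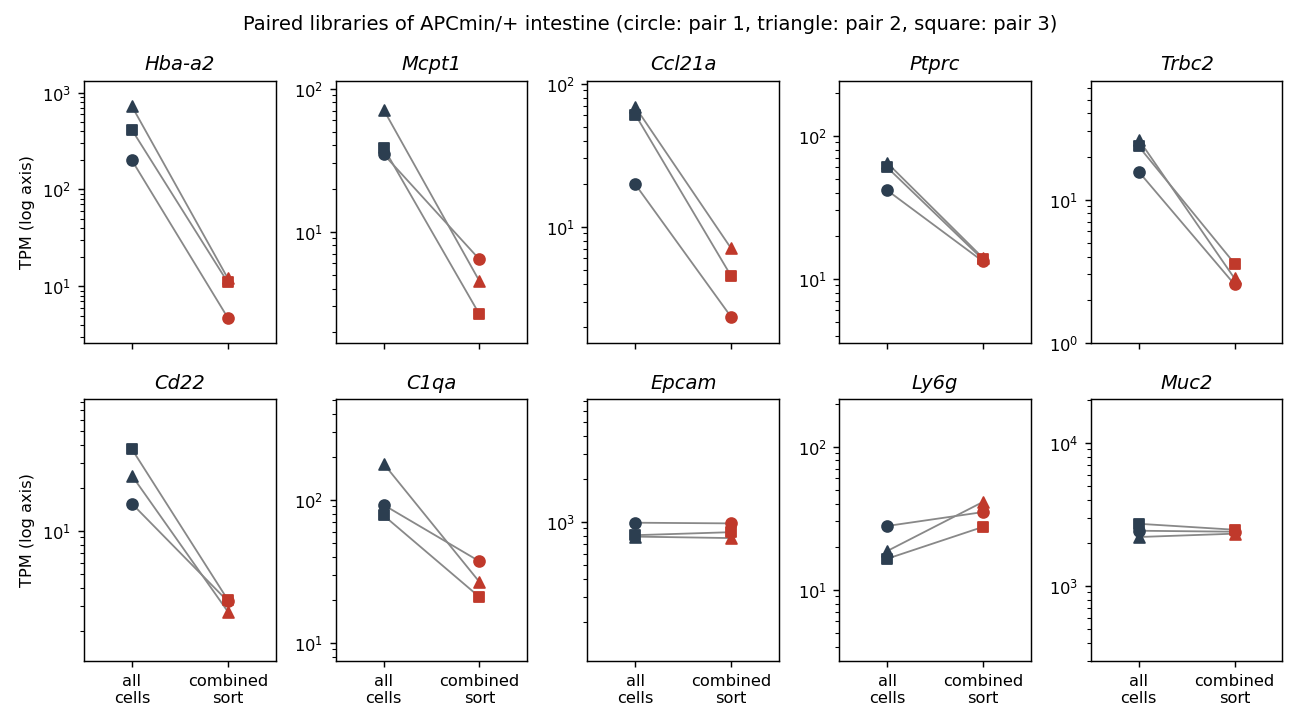
TPM on log axes of 10 genes in the all-cell (dark) and combined (red) library of each pair, joined by a line; circles, triangles and squares mark pairs 1, 2 and 3. The lines of Hba-a2, Mcpt1, Ccl21a, Ptprc, Trbc2, Cd22 and C1qa descend in all 3 pairs, those of Epcam and Muc2 are close to level, and those of Ly6g climb.

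A pair of chemokine genes in the lymphoid stroma list fell, and its other 5 tested entries were not called. Ccl21a, the chemokine by which lymphatic vessels and the stroma of lymphoid follicles attract T cells and dendritic cells, was 2.34, 7.05 and 4.52 TPM in the combined sort and 19.8, 68.6 and 60.7 TPM in all cells. The log2 fold change of Ccl21a (chr4:42772860-42773993, minus strand) was -3.08 ± 0.16 (adjusted p = 0.00361), with no overlap. It shares 61.3% of its read-length windows with near copies such as Gm13304, which was lower too (-3.37, named for this overlap), so reads could be split among them. Cxcl12, another stromal chemokine, fell by 1.31. Ccl20, a chemokine of follicle epithelium, was 4.38, 1.75 and 2.11 TPM against 3.33, 1.05 and 2.59 TPM (0.18 ± 0.16), and a second entry for Ccl21a, listed at 0 in 3 of the 6 libraries, was at -1.10 (adjusted p = 0.325). In all 2 of 7 tested entries were called lower, beside 5.03% of all genes tested.

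All 13 follicular B cell genes tested were called lower, with a median log2 fold change of -2.06, beside 5.03% of all genes tested. Ighd, the heavy chain of IgD on mature B cells, was 1.95, 3.71 and 5.43 TPM against 14.4, 37.4 and 50.3 TPM (-2.80 ± 0.15). Cd22, an inhibitory B cell lectin, was 3.22, 2.73 and 3.30 TPM against 15.5, 24.3 and 37.2 TPM (-2.63 ± 0.23). Pair 1 had the lowest all-cell level of both genes, and the combined libraries lay close together for Cd22. Cd79b, part of the B cell receptor, fell by 2.06 and Ighm, the IgM heavy chain, by 2.10. Without pair 3, 8 members were called, and without the pairing term 1 was. Ccl21a and Cxcl12 were also not called without the pairing term (adjusted p = 0.0701 and 0.424), and Cxcl12 was not called without pair 2 or pair 3.

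Plasma cell genes fell less far but at much higher levels. Igha, the constant chain of the IgA that plasma cells secrete into the gut, was 3320, 13445 and 11341 TPM in the combined sort and 7589, 32399 and 24532 TPM in all cells. Jchain, which joins IgA into dimers, was 338, 1467 and 1193 TPM against 813, 3883 and 2699 TPM. The groups overlapped for both genes, because pair 1 was low in both its libraries, yet within each pair the combined library was lower by a near constant step (Igha -1.19, -1.27 and -1.11). The fits gave -1.19 ± 0.07 for Igha (adjusted p = 0.00392), -1.28 ± 0.05 for Jchain and -1.26 ± 0.09 for Igkc, the kappa light chain. Of 12 plasma cell genes 9 were called lower, beside 5.03% of all genes tested. The count was 8 without pair 2 and 5 without pair 3, where Mzb1, a chaperone of antibody assembly (-1.36), was not called. Mzb1 shares 74.9% of its read-length windows with SPATA24, so its reads could be split. Without the pairing term 0 were called, with adjusted p of 0.6 for Igha and 0.584 for Jchain. Immunoglobulin gene segments held 1.38%, 5.26% and 4.57% of TPM in the combined sort and 3.21%, 12.9% and 9.85% in all cells, and 184 of the 186 tested lay below 0.

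T cell transcripts, which in the gut include those of intraepithelial lymphocytes, were called lower in 17 of 18 tested genes (median -1.89). The share over all genes tested was 5.03%. Trbc2, a constant region of the T cell receptor beta chain that shares 37.7% of its windows with Trbc1, was 2.55, 2.81 and 3.57 TPM against 15.7, 26.3 and 23.5 TPM (-2.50 ± 0.13). Trac, the alpha chain constant region, was 2.00, 1.82 and 2.17 TPM against 11.0, 18.0 and 19.8 TPM (-2.49 ± 0.17). The combined libraries were low and alike for both genes, and no all-cell library came near them. Cd3e, part of the receptor's signalling complex, fell by 2.17, Cd7 by 2.16 and Gzma, a granzyme of cytotoxic cells, by 2.06. Itgae, the integrin chain that holds intraepithelial lymphocytes and some dendritic cells to epithelium, fell by 1.37. Il7r, the interleukin-7 receptor of T cells and innate lymphoid cells, fell by 1.76. Of 6 tested innate lymphoid genes 3 were called lower, among them Gata3 and Klrg1, whose direction the filter fixed. For the T cell genes, 13 members were called without the pairing term and 9 without pair 3. Gzma and Il7r were not called without the pairing term (adjusted p = 0.0894 and 0.0908).

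Antigen presentation genes fell as well. All 9 genes of the MHC class II pathway, which shows peptides to helper T cells, were called lower (median -1.94). Over all genes tested the share was 5.03%. H2-Aa, a class II alpha chain, was 131, 91.1 and 101 TPM against 341, 638 and 417 TPM (-2.07 ± 0.26). Cd74, the invariant chain, was 330, 266 and 283 TPM against 838, 1493 and 1075 TPM (-1.92 ± 0.21), and Ciita, the master regulator of the pathway, fell by 1.67. Pair 2 had the highest all-cell level and the lowest combined level of all 3 genes, and pair 1 showed the smallest fall. Class II genes are also transcribed by gut epithelium, B cells and dendritic cells, and their sources were not separated here. Without the pairing term 6 of the 9 were called and without pair 3 only 1, with adjusted p of 0.0918 for H2-Aa, 0.072 for Cd74 and 0.0925 for Ciita.

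Of 13 macrophage genes 8 were called lower and none higher, beside 5.03% lower and 0.0338% higher of all genes tested. C1qa, a complement component made by tissue macrophages, was 37.2, 26.7 and 20.9 TPM against 92.2, 179 and 77.8 TPM (-1.94 ± 0.26). Apoe, a lipid carrier, was 225, 180.04 and 182 TPM against 534, 1079 and 526 TPM (-1.78 ± 0.26). Again the all-cell library of pair 2 stood highest, and no combined library reached an all-cell one. Lyz2, the myeloid lysozyme, fell by 1.47, and Adgre1, which encodes F4/80, by 1.64. Among 12 dendritic cell genes 8 were called, with Itgax (CD11c) at -1.45, Siglech of plasmacytoid cells at -1.87 and Clec9a of cross-presenting cells at -1.27. Without the pairing term 0 macrophage and 2 dendritic genes were called, and without pair 3 the counts were 1 and 3. C1qa, Apoe, Adgre1 and Clec9a were among those not called without pair 3, and Clec9a also without pair 1, without pair 2 and after rescaling.

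The monocyte genes were split. Csf1r, the receptor for the growth factor of monocytes and macrophages, was 19.6, 13.03 and 10.8 TPM against 45.5, 73.6 and 34.7 TPM (-1.73 ± 0.23). Cx3cr1, the fractalkine receptor, fell by 1.58. Ly6c2, which encodes Ly6C and shares 21.9% of its windows with Ly6c1, was 20.5, 85.4 and 64.1 TPM against 29.7, 75.5 and 65.8 TPM, a difference of -0.12 ± 0.13. Ly6c1 was 5.08, 18.6 and 15.0 TPM against 9.27, 35.5 and 35.7 TPM. It was lower in each pair (-0.95 ± 0.10, limma adjusted p = 0.00935), under the 2-fold minimum and with overlap between the groups. Ly6c2 had 377 to 476 TPM in intestinal M libraries and 9.45 to 25.9 TPM in G libraries, so the combined libraries lay nearer to all cells than to the M sort. Ccr2, the receptor that brings monocytes into tissue, differed by -0.88 ± 0.13 (adjusted p = 0.0188), under the 2-fold minimum. Of 14 monocyte genes 5 were called lower, beside 5.03% of all genes tested. The count was 0 without the pairing term and 1 without pair 3, and Csf1r and Cx3cr1 were among those lost.

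Neutrophil genes were low in both groups and mostly not called. Ly6g, the neutrophil antigen, was 34.9, 41.0 and 27.5 TPM in the combined sort and 27.9, 18.6 and 16.4 TPM in all cells. It was higher in the combined library of each pair, by 0.71 ± 0.15 (adjusted p = 0.0498), under the 2-fold minimum and with 1 combined library below the highest all-cell library. The intestinal G and M sorts had 0.99 to 3.75 TPM of Ly6g, and the splenic combined sort 94.0 to 258 TPM. The 6 colonocyte genes summed to 2641 ± 428 TPM in the combined sort and 2449 ± 659 in all cells, against 203 ± 8.55 (G) and 166 ± 14.0 (M) in the single sorts (SD, n = 3 each), and their part in the Ly6g levels was not tested. S100a8, an alarmin abundant in neutrophils, was 13.6, 45.1 and 6.88 TPM against 11.5, 20.2 and 50.1 TPM, with opposite signs between pairs (-0.45 ± 0.73), and in spleen it had 9406 to 20526 TPM. Csf3r, the receptor for granulocyte growth factor, was 8.18, 12.5 and 1.93 TPM against 4.89, 7.25 and 2.71 TPM (0.34 ± 0.23), beside 1684 to 1727 TPM in spleen. Itgam, which encodes CD11b and shares 71.7% of its windows with an overlapping predicted gene, was 7.39, 8.07 and 3.76 TPM against 8.02, 11.6 and 6.84 TPM (-0.43, adjusted p = 0.117).

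Beside 5.03% of all genes called lower, 2 of 15 mature neutrophil genes were called, both lower: Mmp9, a gelatinase of neutrophil granules (-1.33), and Stfa3, a cysteine protease inhibitor (-1.75). Of 6 granule genes 1 was called, Ngp (-2.04 ± 0.27), at 0.48, 0.48 and 2.37 TPM against 3.44, 3.90 and 22.8 TPM. Pair 3 had the highest level of Ngp in both groups. None of these 3 was called without the pairing term, and Mmp9 and Stfa3 were not called without pair 3, nor Stfa3 without pair 1, without pair 2 or after rescaling. The neutrophil list summed to 98.0%, 127% and 29.7% of the all-cell library in pairs 1 to 3.

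Genes by which suppressor cells act on T cells were lower or not called. Cybb, the catalytic subunit of the phagocyte oxidase, was 5.28, 6.61 and 5.06 TPM against 16.4, 28.8 and 17.5 TPM (-1.68 ± 0.11). Its partner Ncf1 was 5.09, 7.33 and 4.08 TPM against 14.4, 23.4 and 17.7 TPM (-1.59 ± 0.12). Both were lower without overlap between the groups. The cytokine gene Tgfb1 fell by 1.44, Il10 by 1.03 and Entpd1, which degrades extracellular ATP, by 1.00. Cd274, which encodes PD-L1, was 4.02, 5.51 and 5.10 TPM against 7.36, 12.9 and 9.72 TPM, a difference of -0.88 ± 0.10 that stayed under the 2-fold minimum. Arg1, arginase 1, was 1.94, 3.43 and 0.94 TPM against 2.13, 7.12 and 1.38 TPM (-0.42 ± 0.18, adjusted p = 0.214), and Nos2, inducible nitric oxide synthase, was 23.1, 2.70 and 5.18 TPM against 24.5, 2.71 and 4.06 TPM (0.07 ± 0.10). Nos2 was high in both libraries of pair 1. In all, 5 of 18 were called lower, beside 5.03% of all genes tested, and the filter fixed the direction of Il10. The count was 1 without the pairing term and 3 without pair 3. Il10 lost its call with any pair left out, and Il10 and Entpd1 lost theirs after rescaling.

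Vessel and connective tissue genes fell in most members. Of 15 endothelial genes 11 were called lower (median -1.37), beside 5.03% of all genes tested. All 15 were lower in each pair, beside 47.7% of all genes tested. Mmrn1, a lymphatic endothelial protein, was 0.88, 1.79 and 1.30 TPM against 4.69, 21.4 and 16.8 TPM (-2.52 ± 0.30), and Reln, also made by lymphatic vessels, fell by 2.05. Plvap, of fenestrated blood vessels, was 3.06, 15.0 and 17.2 TPM against 10.1, 49.6 and 53.0 TPM (-1.56 ± 0.06). The groups overlapped for Plvap, with pair 1 lowest in both. Lyve1, a hyaluronan receptor of lymphatics, fell by 1.72 and Pecam1 (CD31) by 1.39.

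Of 12 fibroblast and matrix genes 7 were called lower, beside 5.03% of all genes tested. Dcn, the proteoglycan decorin, was 1.44, 4.75 and 1.93 TPM against 4.65, 36.8 and 15.2 TPM (-2.13 ± 0.30), and Col3a1, a fibrillar collagen chain, fell by 1.52. Acta2, smooth muscle actin, fell by 1.04, 1 of 4 called among 8 smooth muscle and pericyte genes, and 0 of 10 enteric glia and neuron genes were called (median -0.29), near the 5.06% of all genes tested. Without the pairing term 0 endothelial, 0 fibroblast and 0 muscle genes were called, and without pair 3 the counts were 3, 0 and 0. Mmrn1, Lyve1, Dcn, Col3a1 and Acta2 were among those lost without pair 3, Dcn and Acta2 also without pair 2, and Acta2 after rescaling.

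**Figure D4:**
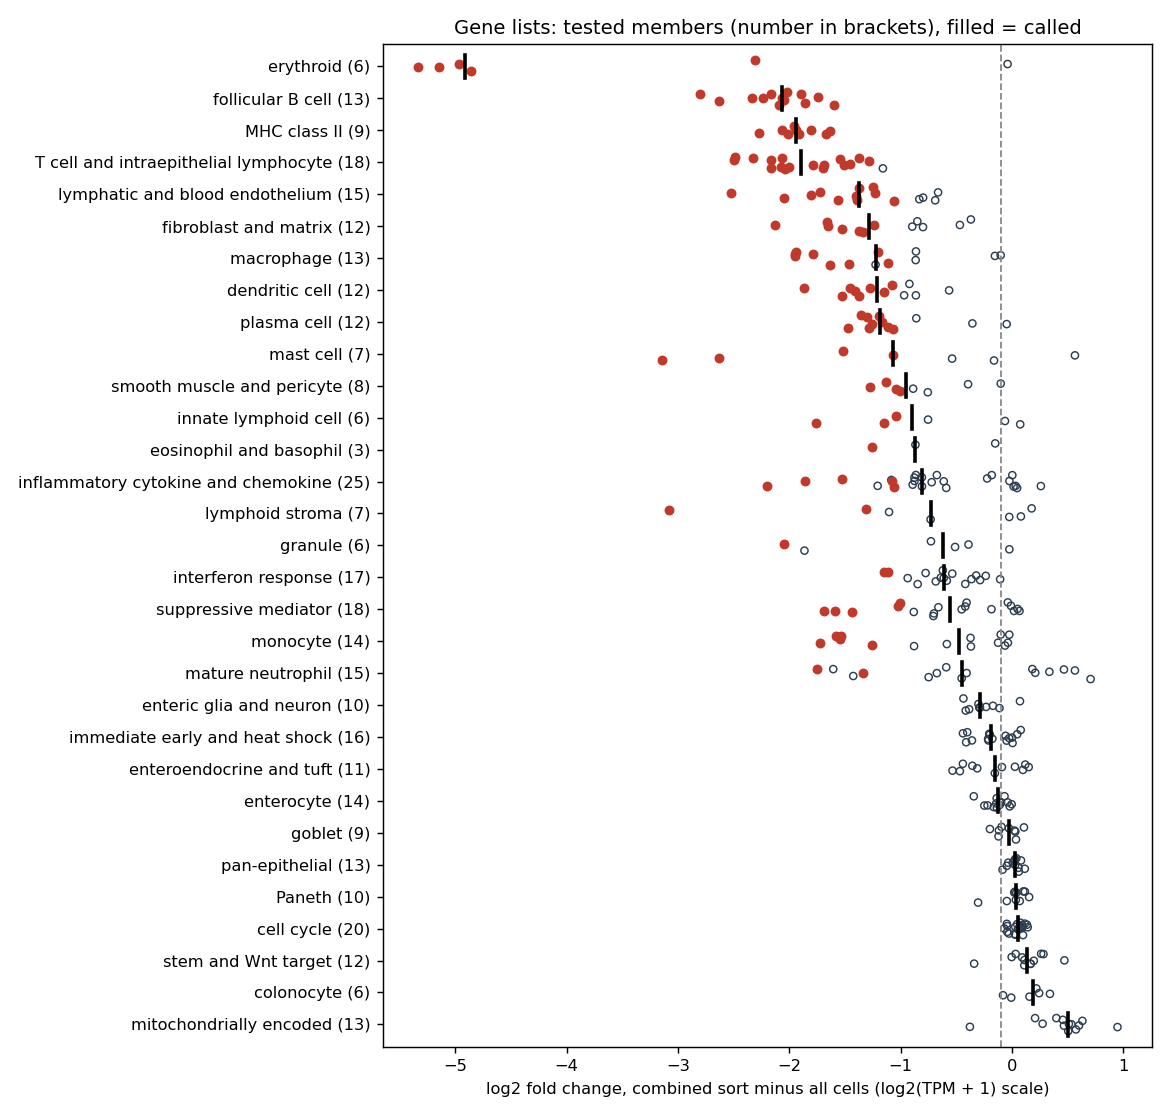
Log2 fold change (horizontal) of every tested member of 31 gene lists, with the number tested in brackets; filled points are called, open points are not, bars are list medians and the dashed line is the median of all genes tested (-0.10). Follicular B cell, MHC class II and T cell members lie to the left of the line, and epithelial and cell cycle members lie around it.

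None of the 75 tested epithelial members in 7 lists was called, beside 5.06% of all genes tested. The pan-epithelial genes had a median of 0.03, enterocyte genes -0.12, colonocyte genes 0.19, goblet genes -0.03, Paneth genes 0.04, stem and Wnt target genes 0.14 and enteroendocrine and tuft genes -0.15, beside -0.10 over all genes tested. Krt8, a keratin of simple epithelia, was 2986, 2154 and 2704 TPM against 2996, 2142 and 2559 TPM (0.03 ± 0.04). Muc2, the gel-forming mucin of goblet cells, was 2393, 2319 and 2471 TPM against 2431, 2197 and 2719 TPM (-0.03 ± 0.06). Defa24, a Paneth cell defensin, was 5125, 6760 and 6688 TPM against 5426, 6752 and 5970 TPM (0.03 ± 0.07). The groups overlapped for all 3 genes. Zg16, a lectin of mucus, differed by -0.20, Lyz1, the Paneth lysozyme, by 0.10, Olfm4, a stem cell marker, by 0.09 and Apoa1, an enterocyte apolipoprotein, by -0.16.

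Some epithelial genes differed regularly under the 2-fold minimum. Chga, which encodes chromogranin A, was 31.2, 28.3 and 23.7 TPM against 45.4, 39.3 and 36.7 TPM (-0.53 ± 0.05, adjusted p = 0.00776). Sct, secretin, differed by -0.47 and Chgb by -0.36, and all 3 were lower in each pair. Apoa4, an enterocyte apolipoprotein, differed by -0.34 ± 0.03 (adjusted p = 0.00795), whereas the hormone genes Gcg (0.10 ± 0.06) and Cck (0.15 ± 0.10) had higher means of the paired difference and were not called. The enteroendocrine and tuft list summed to 78.9%, 82.9% and 82.4% of the all-cell library, without overlap between the groups. Saa1, an acute phase protein of colonic epithelium, was 761, 886 and 679 TPM against 701, 593 and 542 TPM (0.34 ± 0.09, adjusted p = 0.0816).

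Cytokine, chemokine and interferon response genes were called in some members, beside 5.06% of all genes tested. Ccl5, a chemokine of cytotoxic lymphocytes, was 5.45, 1.80 and 1.42 TPM against 21.7, 13.01 and 12.4 TPM (-2.20 ± 0.15), and Ccl4, a macrophage inflammatory chemokine, fell by 1.86. They were 2 of 5 called among 25 cytokine and chemokine genes (median -0.81). Of 17 interferon response genes 2 were called, the GTPase genes Gbp3 (-1.15) and Iigp1 (-1.12), and all 17 were lower in each pair, beside 47.7% of all genes tested. None of 16 immediate early and heat shock genes was called, a group that tissue dissociation can raise. Fosb (-0.44, adjusted p = 0.0277), Junb (-0.40, 0.0406) and Dusp1 (-0.36, 0.0321) were lower in each pair under the 2-fold minimum, and Fos differed by -0.21 (0.116). None of 20 cell cycle genes was called (median 0.06), where 5.06% of all genes tested were called, so counts of 0 in lists of this size lie near the background. Ccl4, Gbp3 and Iigp1 lost their call without pair 3, Gbp3 and Iigp1 without pair 2, and all 4 without the pairing term.

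Most mitochondrially encoded genes had higher values in the combined sort, and none of the 13 passed the 2-fold minimum. mt-Co3, a subunit of cytochrome oxidase, was 1801, 3603 and 3910 TPM against 1364, 1505 and 1721 TPM (0.95 ± 0.18, adjusted p = 0.0364). mt-Atp6, of ATP synthase, was 1447, 1802 and 1573 TPM against 1015, 1174 and 1133 TPM (0.53 ± 0.04), and mt-Co1 was 59268, 57297 and 53786 TPM against 47819, 33602 and 34435 TPM (0.57). For each of the 3 genes every combined library lay above every all-cell library, beside 0.791% of all genes tested. The rule for named genes took them in by that pattern, so it adds no support. mt-Co3, mt-Atp6 and mt-Co1 share 99.9%, 99.5% and 39.8% of their windows with nuclear copies, so their reads could be split. After rescaling by the median ratio mt-Co3 passed the fold minimum (1.05, adjusted p = 0.0366), as it did without pair 1 (1.22). Of the 13 genes 10 were higher in all 3 pairs (median 0.51), beside 5.45% of all genes tested. mt-Nd6, a subunit of complex I, went the other way at 181, 149 and 99.5 TPM against 241, 209 and 117 TPM (-0.38 ± 0.06, adjusted p = 0.0211), lower in each pair. With the mitochondrial and immunoglobulin genes removed and the rest rescaled, 686 genes were called, 5 higher and 681 lower.

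**Figure D5:**
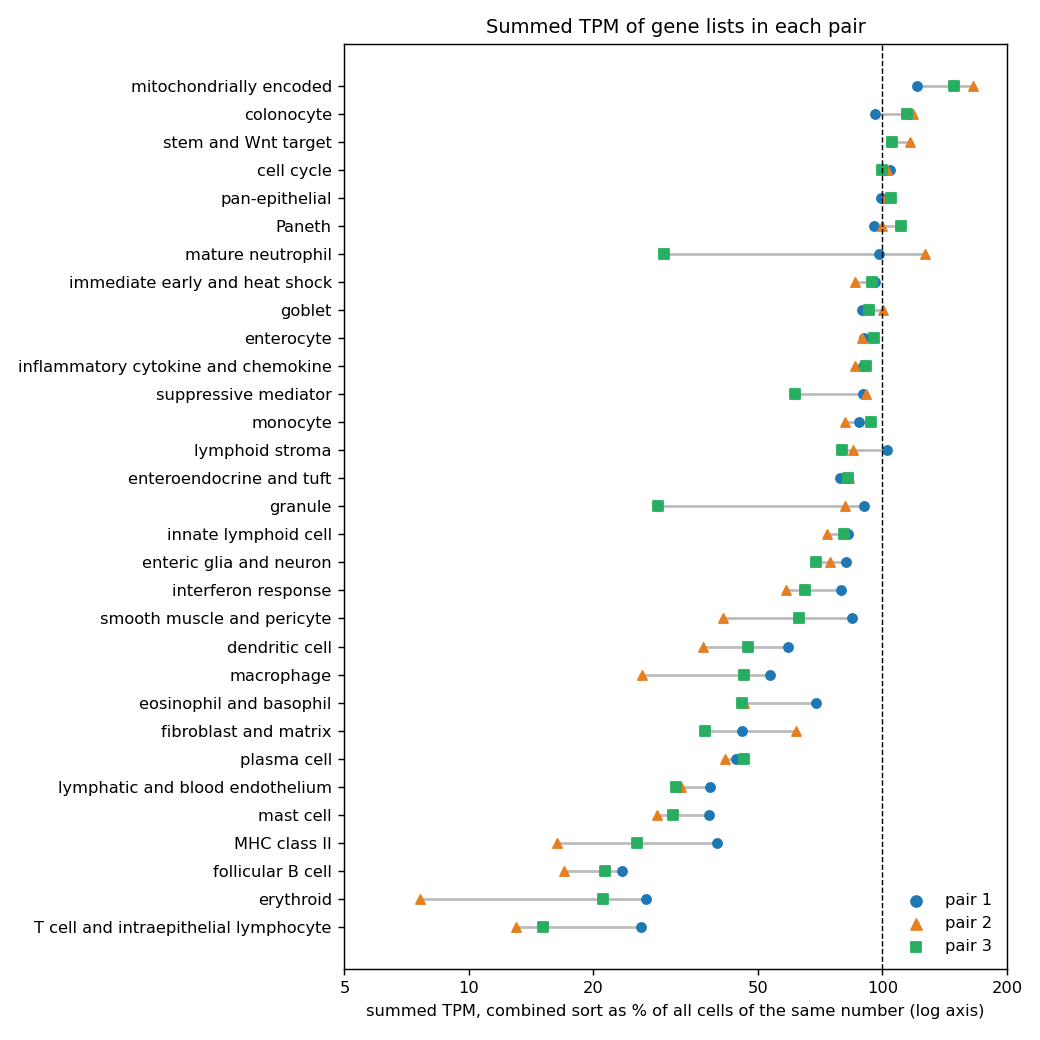
Summed TPM of each gene list in the combined library as a percentage of the all-cell library of the same number, on a log axis, for pairs 1 (circles), 2 (triangles) and 3 (squares). T cell, erythroid, follicular B cell, MHC class II, mast cell and endothelial sums lie below 40% in each pair. Most of the erythroid sum of each combined library is Car2, which was not called. Pan-epithelial sums lie between 99.2% and 105%, and enteroendocrine and tuft sums between 78.9% and 82.9%. The neutrophil and granule sums fall below 30% in pair 3 alone.

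The pairs differed in how far immune transcripts fell. T cell genes summed to 26.03%, 12.96% and 15.1% of the all-cell library in pairs 1 to 3, MHC class II genes to 39.8%, 16.4% and 25.5%, and macrophage genes to 53.3%, 26.3% and 46.3%. Pair 1 kept the largest share and pair 2 the smallest in each of these lists. Plasma cell genes kept a narrower range, at 44.3%, 41.7% and 46.2%, and endothelial genes were at 38.2%, 32.5% and 31.7%. Granule genes were at 90.3%, 81.2% and 28.7%, with pair 3 apart, and mature neutrophil genes showed the same split.

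Set beside the single sorts labelled with the same tissue, the combined sort held less T cell and MHC class II RNA. The T cell sum was 30.2 ± 9.37 TPM in the combined sort, 97.2 ± 19.9 (G), 295 ± 158 (M) and 171 ± 13.4 in all cells (SD, n = 3 each). The MHC class II sum was 621 ± 94.7, 1788 ± 904, 3386 ± 1673 and 2492 ± 775 TPM in the same order. The plasma cell sum was 22176 ± 12183, 8571 ± 3286, 117622 ± 19252 and 50669 ± 28687 TPM. For T cell and class II genes every combined library lay below every library of the other 3 groups, whereas for plasma cell genes combined library 1 lay within the range of the G sort and the other 2 between the G and M sorts. The libraries of the G and M sorts had 146 to 253 TPM of Xist, unlike combined libraries 1 and 2. Their colonocyte sums were 203 ± 8.55 (G) and 166 ± 14.0 (M) TPM, against 2641 ± 428 TPM in the combined sort and 2449 ± 659 TPM in all cells. A difference between sorts cannot be told apart from these differences between the libraries, and none was tested.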

How the data were processed

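The labels' protocols describe sorted cells lysed in Trizol, stranded mRNA libraries (TruSeq) and single 75-base reads on a NextSeq 500. STAR 2.6.1c aligned them to mouse build mm10, per the submitters' processing notes, and the deposited TPM values come from RSEM. For the RSEM version and the gene annotation the sources used here give nothing. TPM keeps no read depth, so the counting error behind a value is unknown. The 53465 genes of 39 libraries were read as deposited, and 2 further groups of libraries (G and M sorts of intestine) and the combined sort of spleen were used for side-by-side levels.

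Values were taken as log2(TPM + 1), computed from the deposited TPM, and genes with at least 1 TPM in at least 3 of the 6 libraries were kept. Fold changes are on that scale, which understates the change of low genes. limma 3.58.1 in R 4.3.3 fitted group and pair, with a variance trend and 2 residual degrees of freedom. A gene was called at a Benjamini-Hochberg adjusted p under 0.05 over all 14793 genes with at least a 2-fold change. The pair comes from the number in the titles, and same-numbered libraries deviated together (0.645 to 0.703). The fit was tested on simulated data.

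Gene lists and the rule for named genes were chosen with earlier results of these data known. The rule took in a fixed identity panel and the most abundant and called members of each list. It also took the 12 largest falls among called genes above 10 TPM that were lower in each pair. Only 1 gene called higher reached that level, so the 12 largest rises without overlap between the groups were taken instead. Not every gene it takes in is printed, and genes named outside it are said to be. Hdc, mt-Nd6, Ccl20, Apoa4, Fosb, Junb, Dusp1, Gcg and Cck were named after their values were seen. Read-length windows of 75 bases shared between genes were counted on GENCODE transcripts. Alternatives changed the pseudocount, filter, scaling, pairing term, fold minimum and variance trend and left out pairs or single libraries. Python 3.11.15 and pandas 2.3.3 made the tables.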

Additional observations from a re-analysis of the deposited data

How the results depend on the processing

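With the pair as a block 749 genes were called. Without the replicate block the count was 78 (0 higher, 78 lower), and with the spread taken over all 39 libraries it was 589 (2 higher). Leaving out 1 pair gave 269 to 783 calls, 3 to 9 higher and 266 to 774 lower. Leaving out 1 library without the block gave 0 calls for 5 libraries, and without all-cell library 1 it gave 394 (1 higher, 393 lower). No filter left 14 calls (0 higher, 14 lower) among 29957 genes, a filter of 5 TPM gave 438 (2 higher, 436 lower), and no fold minimum gave 1595 (34 higher, 1561 lower). A pseudocount of 0.1 left 2 genes higher, and so did a fit with no variance trend. The cause of these changes was not tested. No called gene followed through the alternatives changed sign under any of them.

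Among the named genes followed through the alternatives, signs turned only for those not called. Ly6c1, Car2, Gata3, Klrg1, Cd160, Cd8b1 and Dpt were not followed. Removing mitochondrial and immunoglobulin genes took Epcam to -0.0007, and rescaling took Muc2 to 0.0761. Leaving out 1 pair gave a log2 fold change of -0.0247 to 0.0271 for Epcam, -0.2752 to 0.0697 for Ly6c2, -1.2379 to 0.6709 for S100a8, -0.043 to 0.1423 for Nos2, -0.0804 to 0.0277 for Muc2 and -0.0404 to 0.0828 for Defa24. Leaving out 1 library without the replicate block turned the sign of Epcam (-0.0839, -0.0525 and -0.0359), Ly6c2 (0.4767, 0.1275 and 0.0296), S100a8 (0.121 and 0.098), Csf3r (-0.1233), Arg1 (0.1045), Nos2 (-0.7101, -0.4706 and -0.2468), Krt8 (-0.0746, -0.003 and -0.0955), Muc2 (0.0506), Defa24 (-0.0415, -0.0337 and -0.0478), Hdc (-0.2422), Ccl20 (-0.1165 and -0.1379), Apoa4 (0.3009) and Gcg (-0.0402 and -0.0158). Depth is unknown, so levels near 1 TPM carry an unmeasured counting error.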

Other observations

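Leukocyte genes outside the lists were lower too; they are named here after their values were seen. Coro1a, an actin regulator of haematopoietic cells, was 17.0, 17.5 and 15.1 TPM in the combined sort and 49.4, 107 and 89.5 TPM in all cells (-2.17). Cd52, a lymphocyte surface peptide, was 23.2, 36.3 and 33.5 TPM against 72.6, 174 and 131 TPM (-1.92 ± 0.12). Laptm5, a lysosomal protein of leukocytes, was 13.7, 17.6 and 14.7 TPM against 40.1, 77.8 and 70.2 TPM (-1.92). Tyrobp, a signalling adaptor of myeloid and natural killer cells, was 23.0, 25.3 and 14.1 TPM against 56.6, 101 and 47.9 TPM (-1.64). The groups did not overlap for any of these 4 genes. Cd52 and Tyrobp were not called without the pairing term (adjusted p = 0.0701 and 0.0867), and Coro1a was not called without pair 3 (adjusted p = 0.0592). Of 8 tested Gimap genes, GTPases of lymphocytes, 7 were called lower, from Gimap4 at -2.31 ± 0.12, and Gimap9 was not (-0.57). Beside the 5.06% called over all genes, 0 of 21 Defa genes of Paneth cell defensins, 0 of 83 Rpl and 0 of 71 Rps genes of ribosomal proteins were called.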
